A study of Mus musculus with 10 samples.

Results

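The 10 JmjC histone demethylase genes followed here through osteoblast differentiation were Kdm3a, Kdm3b, Kdm4a, Kdm4b, Kdm4c, Kdm6a, Kdm6b, Kdm7a, Phf2 and Phf8. They were taken by gene identifier from a count table of 40620 genes, where all 10 were found, and they form 4 subfamilies of paralogs, Kdm3, Kdm4, Kdm6 and Kdm7, the last of which holds Phf2 and Phf8. The question was which paralog supplied the transcripts of its subfamily at each stage, so the main quantity was the share of a paralog in the summed RPKM (reads scaled by gene length and by library reads) of its subfamily. Between subconfluent cells and 21 d, 1 paralog in each subfamily gained share: the mean share of Kdm3a went from 48.5% to 69.3%, that of Kdm4b from 27.4% to 43.7%, that of Kdm6b from 54.4% to 73.3% and that of Kdm7a from 3.51% to 32.6%. The gains came at different steps, that of Kdm6b mostly at confluence, that of Kdm3a at 24 h and 14 d, that of Kdm4b mostly at 14 d and that of Kdm7a at every step.

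JmjC demethylases oxidize methyl groups on lysines of histones and need iron, oxygen and alpha-ketoglutarate for it. The Kdm3 enzymes act on H3K9 with few methyl groups, the Kdm4 enzymes on trimethylated H3K9 and H3K36, the Kdm6 enzymes on H3K27, and the Kdm7 enzymes, which carry a PHD finger that reads H3K4 trimethylation, on H3K9, H3K27 or H4K20. Kdm3a and Kdm4b are known as genes induced under low oxygen, and Kdm6b as a demethylase that takes part in osteoblast differentiation.

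RNA of MC3T3-E1 cells, a clonal pre-osteoblast line from mouse calvaria, was sequenced at 5 stages with 2 replicates each, named A and B, 10 libraries in all. Subconfluent and confluent cells were kept in growth medium, and cells collected at 24 h, 14 d and 21 d received medium with ascorbic acid and beta-glycerophosphate after confluence. No genotype was changed, and the labels do not say whether A and B were separate cultures, so p-values measure only the spread between these libraries. Between 44736156 and 162939333 counts per library fell on genes, and the lowest count of any of the 10 genes in any library was 154.

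The replicates of 24 h stood apart: over 16133 genes with at least 10 counts in every library, the SD of the log2 ratio between A and B was 0.685 at 24 h, while the other stages gave 0.287 to 0.325. All 10 genes had a lower RPKM in 24 h A, at 0.478 to 0.705 times the value of 24 h B. A share is a ratio within a library and needs no scaling between libraries, and among the 10 members the widest SD between replicates of a share, 3.59 points for Kdm4a, was at confluence, while at 24 h it was at most 1.9 points. Outside the members the 24 h replicates did disagree in shares, with 62.7% and 70.7% for Kdm2a, an SD of 5.64 points. The first 3 stages were indexed with another pair of sequencing indexes than the last 2, so the step from 24 h to 14 d and a difference between library sets cannot be told apart. The same limit holds for every comparison across the sets, among them 21 d with subconfluent cells and 14 d with confluence, and for the tests over 5 stages. Among 8 osteoblast markers, 7 or 8 had a mean over 1 RPKM at every stage, and their summed RPKM ran from 7230 to 21300. Bglap, which codes for osteocalcin of mature osteoblasts, was at 1.11 and 3.89 RPKM in subconfluent cells and at 1090 and 995 at 21 d. Runx2, Sp7, Alpl, Ibsp and Dmp1 were also higher at 21 d in both replicates. Col1a1 was lower, at 5660 and 5440 RPKM in subconfluent cells and 5290 and 4900 at 21 d, and so was Col1a2, at 3540 and 3480 against 3090 and 2980. Dmp1, an osteocyte gene, was the marker under 1 RPKM at confluence and 24 h. The muscle and endothelium lists, of 3 genes each, had 0 genes over 1 RPKM and summed to at most 0.605 and 0.0558 RPKM, the adipocyte list had 1 of 5 and 2.69 to 6.83 RPKM, the macrophage and blood list 2 of 5 and 13.2 to 19.2 RPKM, and the chondrocyte list 2 or 3 of 4 and 45.7 to 241 RPKM. The part of the cells behind these lists in the results was not tested, and in bulk RNA fewer cells of a type and less RNA per cell cannot be told apart.

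Promoter sequence was taken from RefSeq (GRCm38.p6) as windows of 250 bases before to 50 bases from each annotated start on. The set used held 10 windows, for 7 of the 10 members. It held none of Kdm3b, Kdm4b and Kdm6b, which does not mean that RefSeq has none, and their promoters were not searched. The 3 windows of the Kdm7 subfamily are shown because its composition shifted most, and, of 3 windows of Kdm3a, the paralog with the next largest gain, the only one with a match is shown. These windows were picked with the values known. Capitals mark the core of the hypoxia response element, searched as ACGTG and GCGTG on both strands, where CACGTG holds ACGTG on both strands and counts as 2 overlapping matches.
Kdm7a, chr6:39206724-39207023, minus strand: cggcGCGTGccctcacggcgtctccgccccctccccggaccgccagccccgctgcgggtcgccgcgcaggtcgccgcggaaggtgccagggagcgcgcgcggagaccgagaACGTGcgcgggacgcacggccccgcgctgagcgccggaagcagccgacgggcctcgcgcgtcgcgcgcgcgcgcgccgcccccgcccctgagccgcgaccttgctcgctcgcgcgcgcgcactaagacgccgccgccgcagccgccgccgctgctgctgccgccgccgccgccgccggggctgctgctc
Phf2, chr13:48870836-48871135, minus strand: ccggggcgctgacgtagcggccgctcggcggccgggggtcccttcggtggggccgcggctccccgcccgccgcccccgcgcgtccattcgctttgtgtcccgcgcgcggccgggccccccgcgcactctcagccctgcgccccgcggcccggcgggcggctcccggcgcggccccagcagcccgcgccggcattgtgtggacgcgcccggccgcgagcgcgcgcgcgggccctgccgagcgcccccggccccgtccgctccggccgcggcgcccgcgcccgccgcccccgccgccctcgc
Phf8, chrX:151520422-151520721, plus strand: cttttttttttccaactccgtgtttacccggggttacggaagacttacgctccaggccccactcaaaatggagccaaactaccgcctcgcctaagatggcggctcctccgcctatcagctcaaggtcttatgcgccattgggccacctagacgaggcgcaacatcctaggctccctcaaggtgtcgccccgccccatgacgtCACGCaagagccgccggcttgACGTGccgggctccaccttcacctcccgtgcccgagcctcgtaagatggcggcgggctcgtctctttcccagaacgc
Kdm3a, chr6:71632868-71633167, minus strand: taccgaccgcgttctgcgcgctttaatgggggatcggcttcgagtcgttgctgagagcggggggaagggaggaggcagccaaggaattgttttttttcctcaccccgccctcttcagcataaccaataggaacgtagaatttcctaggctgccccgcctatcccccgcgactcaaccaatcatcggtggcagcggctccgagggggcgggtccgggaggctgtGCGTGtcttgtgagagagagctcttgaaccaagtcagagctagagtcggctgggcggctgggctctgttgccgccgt
The core stood 2 times in the window of Kdm7a, at positions -246 and -139 from the start, 2 times in that of Phf8, at -48 and -27, and 1 time in the Kdm3a window shown, at -27, while the other 2 windows of Kdm3a and the window of Phf2 held 0. The most matches were in genes that were not called between subconfluent cells and 21 d with all 10 libraries, 6 in 1 of the 2 windows of Kdm4c, with 0 in the other, and 4 in that of Kdm6a, and the window of Kdm4a held 0. Of 32851 windows of the same length, 43.8% held at least 1, so a match is common and describes only these letters. Kdm7a and Phf2 windows were both rich in CpG, with 65 and 63 CpG and 82.7% and 87.0% G and C, against 26 CpG and 61.0% for Phf8. The RUNX core TGTGGT, in 16.8% of all windows on either strand, was in 0 of the 10 windows of members.

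The order of the levels changed with differentiation. In subconfluent cells Kdm4a was highest at 18.1 RPKM in A and 17.5 in B, followed by Phf2 at 14.9 and 14.4. Kdm3b, Kdm3a and Kdm4b came next, between 7.66 and 8.86 RPKM, with overlapping replicates between Kdm3a and Kdm4b, and Kdm6b, Kdm4c, Phf8 and Kdm6a lay between 2.62 and 3.75 RPKM. Kdm7a was lowest, at 0.667 and 0.607 RPKM. At 21 d Kdm3a was highest at 19.0 and 19.1 RPKM, above Kdm4a at 17.3 and 16.7, Kdm4b at 16.5 in both replicates and Phf2 at 15.5 and 14.8. Kdm7a, at 8.90 and 9.06 RPKM, had passed Kdm3b at 8.68 and 8.27 and Kdm6b at 8.30 and 7.35, of which the last pair overlapped. Kdm4c, Phf8 and Kdm6a were then the 3 lowest, between 2.82 and 4.39 RPKM. The first place of Kdm3a rested on the gene length behind the RPKM values: with the exon lengths of GENCODE vM21 in their place, Kdm4a was highest in all 10 libraries and Kdm3a had rank 4 in all 10, at 11.3 and 11.4 on the RPKM scale at 21 d against 17.2 and 16.6 for Kdm4a.

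**Figure D1:**
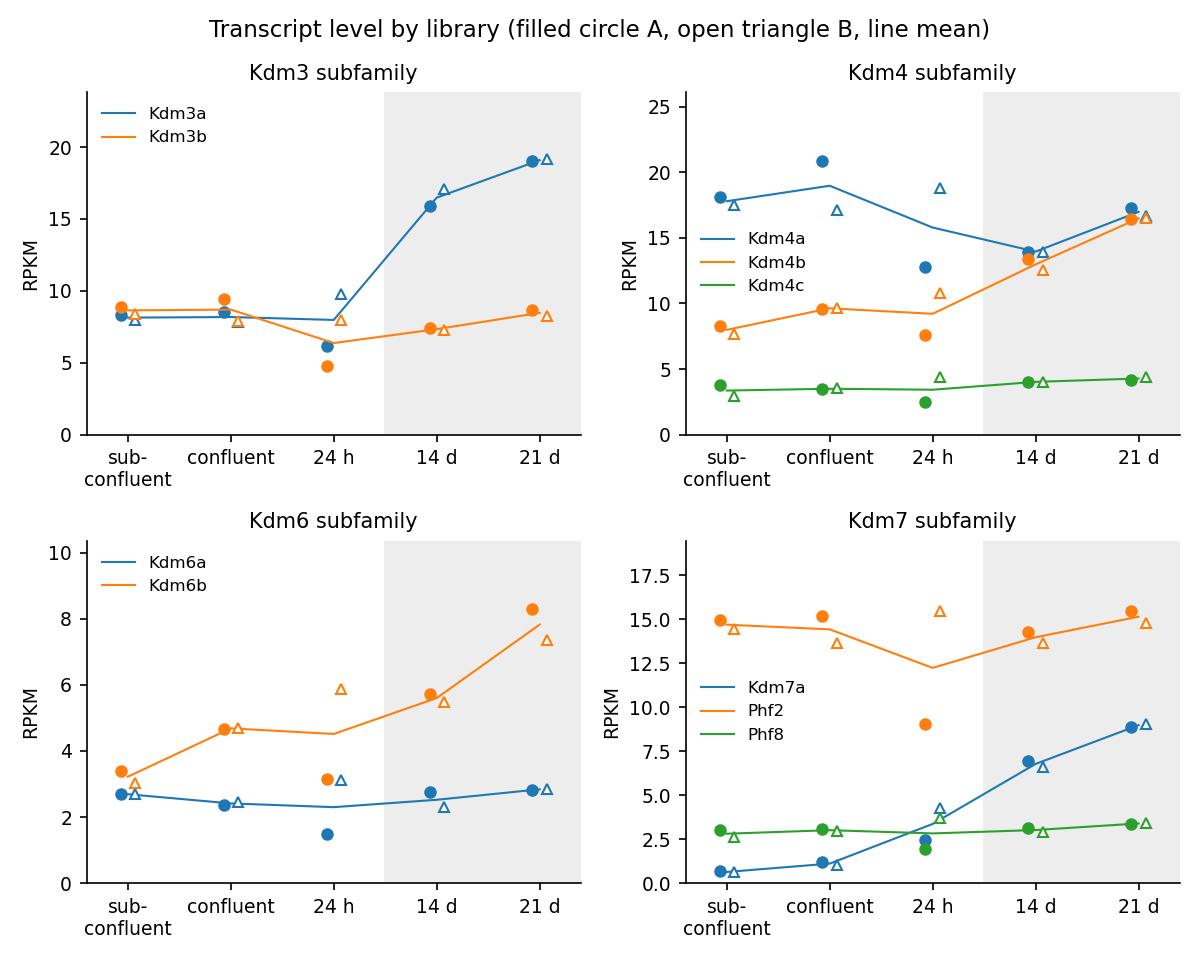
RPKM of the 10 genes by stage, a panel per subfamily, on a linear axis from 0; filled circles are replicate A, open triangles replicate B, lines join the means of n = 2, and the grey area marks the libraries of the second index set. All 10 genes were lower in 24 h A than in 24 h B, while Kdm3a, Kdm4b, Kdm6b and Kdm7a stood higher at 21 d than in subconfluent cells in both replicates.

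Kdm7a (chr6:39136623-39206789, GRCm38), a demethylase of H3K9 and H3K27, showed the largest shift of a share among the 10 genes. Its RPKM was 1.19 and 1.04 in confluent cells, 2.47 and 4.26 at 24 h, and 6.93 and 6.63 at 14 d. Its share of the Kdm7 subfamily was 3.58% and 3.43% in subconfluent cells, 6.10% and 5.87% at confluence, 18.4% and 18.2% at 24 h, 28.5% and 28.6% at 14 d, and 32.1% and 33.2% at 21 d. Every stage lay above the one before it with no overlap of replicates, although the RPKM of the 24 h replicates themselves differed. The steps were 2.48 percentage points at confluence, 12.3 at 24 h, 10.2 at 14 d and 4.13 at 21 d, against a pooled SD within stages of 0.387 points. The gain over the whole course was 29.1 points, with p = 0.00106 in an exact permutation test of the F statistic over the 5 stages, the smallest value that its divisions of the libraries can give. This test was made on 8 shares of members, 1 of each mirrored pair and all of the 3-gene subfamilies, and on 4 of the Kdm2 and Kdm5 genes, and its p-values are unadjusted. Each such p-value is of any difference among the stages tested, not of the single gain or fall printed beside it. Within the first index set the gain from subconfluent cells to 24 h was 14.8 points, with exact permutation p = 0.0667, the smallest that 15 divisions allow.

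Phf2 (chr13:48801750-48871119), a demethylase of dimethylated H3K9, lost share, and the test on all 10 libraries did not call its own level. Its RPKM was 15.2 and 13.7 at confluence, 9.03 and 15.4 at 24 h, and 14.3 and 13.7 at 14 d, and its highest value was 1.72 times its lowest. Its share went from 80.3% and 81.7% in subconfluent cells through 78.1% and 77.4%, 67.1% and 66.0%, and 58.7% and 58.9% to 55.8% and 54.3% at 21 d. The share fell by 26 points (exact permutation p = 0.00106), and Phf2 was still the highest gene of the subfamily in 10 of 10 libraries. Phf8 (chrX:151520672-151633859), a demethylase of H3K9 and H4K20, took between 14.5% and 16.7% in the first 3 stages and between 12.2% and 12.9% in the last 2. Its share fell by 3.14 points between subconfluent cells and 21 d (exact permutation p = 0.019), and within the first index set by 0.316 points, with overlapping replicates (exact permutation p = 0.467). Of the mean rise in the summed RPKM of the Kdm7 subfamily, 9.38 from subconfluent cells to 21 d, 88.9% came from Kdm7a, 6.21% from Phf8 and 4.85% from Phf2.

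Kdm3a (chr6:71588972-71632990), which removes mono- and dimethylation from H3K9, changed places on the deposited RPKM values with Kdm3b (chr18:34777047-34838660), its closest paralog. Kdm3a was at 8.32 and 7.96 RPKM in subconfluent cells, 8.56 and 7.80 at confluence, 6.19 and 9.77 at 24 h, and 15.9 and 17.1 at 14 d. Kdm3b stood at 9.47 and 7.93 RPKM at confluence, 4.78 and 7.96 at 24 h, and 7.40 and 7.28 at 14 d. The share of Kdm3a was 48.4% and 48.6%, then 47.5% and 49.6%, 56.4% and 55.1% at 24 h, 68.2% and 70.1% at 14 d, and 68.7% and 69.8% at 21 d. The shift lay in 2 of the 4 steps, 7.21 points at 24 h and 13.4 points at 14 d, while the mean moved by 0.0304 points at confluence and 0.0951 points from 14 d to 21 d, with overlapping replicates and a pooled SD of 1.06. Over the 5 stages the exact permutation p was 0.00952 for a gain of 20.8 points, and with the 24 h libraries left out, a setting chosen after the data were seen, the p was 0.0857 at the same gain. Within the first index set the gain to 24 h was 7.24 points (exact permutation p = 0.2). The rise in the summed RPKM, from 16.8 to 27.6, came from Kdm3a for 102%, since the mean of Kdm3b fell by 0.17 RPKM.

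Which of the Kdm3 genes was higher depended on the gene length used. With the RPKM values as deposited, Kdm3a was the higher in 6 of 10 libraries, those of 24 h, 14 d and 21 d. With counts and no length it was the higher in 4 of 10 libraries, and with the exon lengths of GENCODE vM21, 8225 bases for Kdm3a and 14095 for Kdm3b against 4894 and 6677 behind the RPKM values, in 10 of 10. The gain in share stayed between 19.6 and 21.5 points over the alternatives on this scale. Kdm3b shares 3468 exon bases, 24.6% of its exons, with Gm26538 on the opposite strand, a gene with a mean of 246 counts against 3511 for Kdm3b, and whether strand was used in counting is not given in the sources used here. The same holds for Kdm6b and Kdm7a, which share 286 and 287 exon bases, 4.11% and 2.85% of their exons, with the antisense genes Kdm6bos and 4930599N23Rik.

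The Kdm4 subfamily moved from a leading Kdm4a to near equality of Kdm4a and Kdm4b. Kdm4a (chr4:118136957-118180043), which acts on H3K9 and H3K36 trimethylation, stood at 20.9 and 17.1 RPKM at confluence, 12.8 and 18.8 at 24 h, and 14.0 and 13.9 at 14 d. Kdm4b (chr17:56326062-56402870), with the same substrates, was at 8.32 and 7.66 RPKM in subconfluent cells, 9.61 and 9.65 at confluence, 7.62 and 10.8 at 24 h, and 13.4 and 12.6 at 14 d. The share of Kdm4b was 27.6% and 27.2%, then 28.4% and 31.9%, 33.2% and 31.9%, 42.7% and 41.1%, and 43.4% and 43.9%. Its main step was that from 24 h to 14 d, 9.37 points against a pooled SD of 1.30, which is also the step between index sets, and the gain over the whole course was 16.3 points (exact permutation p = 0.00212). Within the first index set the share of Kdm4b gained 5.14 points to 24 h (exact permutation p = 0.133). From 14 d to 21 d, within the second index set, it gained a further 1.76 points without overlap. The share of Kdm4a was 60.0% and 62.2%, then 61.5% and 56.4%, 55.9% and 55.3%, 44.5% and 45.6%, and 45.6% and 44.4%. It fell by 16.1 points (exact permutation p = 0.0116), and within the first index set by 5.5 points (exact permutation p = 0.267). Kdm4a was the highest Kdm4 gene in 10 of 10 libraries, although its share at 21 d was only just above that of Kdm4b.

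Kdm4c (chr4:74242497-74405860), the third member with these substrates, kept a minor part. Its RPKM was between 2.49 and 4.39, and its share between 10.2% and 13.3% in all 10 libraries. The share differed by -0.163 points between 21 d and subconfluent cells, less than the pooled SD of 1.03, with exact permutation p = 0.447. Of the rise of 8.61 in the summed RPKM of the subfamily, Kdm4b made 98.7%, Kdm4c 10.7% and Kdm4a -9.41%.

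In the Kdm6 subfamily the main shift came before osteogenic medium was given. Kdm6b (chr11:69398508-69413675), the H3K27 demethylase also named Jmjd3, was at 3.41 and 3.03 RPKM in subconfluent cells, 4.67 and 4.69 at confluence, 3.16 and 5.86 at 24 h, and 5.71 and 5.49 at 14 d. Kdm6a (chrX:18162575-18279936), also named Utx, stayed between 1.49 and 3.11 RPKM. The share of Kdm6b was 55.9% and 52.9% in subconfluent cells and 66.3% and 65.7% at confluence, then 68.0% and 65.3%, 67.5% and 70.5%, and 74.7% and 72.0%. The step at confluence, within growth medium and 1 index set, was 11.6 points, against 0.672 at 24 h, 2.33 at 14 d and 4.31 at 21 d with a pooled SD of 1.82, and the replicates overlapped at the steps to 24 h and 14 d. Within the first index set the gain to 24 h was 12.2 points (exact permutation p = 0.2). The whole gain was 18.9 points (exact permutation p = 0.00635), and Kdm6b made 96.9% of the rise of 4.75 in the summed RPKM.

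The denominator touched this subfamily most. Uty, the Y-linked paralog of Kdm6a, had between 24.1% and 34.5% of the subfamily once it was added, and the share of Kdm6b was then 39.6% in subconfluent cells, 49.2% at confluence, 45.8% at 14 d and 52.3% at 21 d. The gain over the whole course was 12.7 points, and the mean of 14 d lay below that of confluence, whereas without Uty it lay above it by 3 points. Jmjd1c, a further Kdm3 gene, took 22.3% of that subfamily in subconfluent cells and 17.4% at 21 d, and Kdm4d at most 0.16% of the Kdm4 subfamily in any library.

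**Figure D2:**
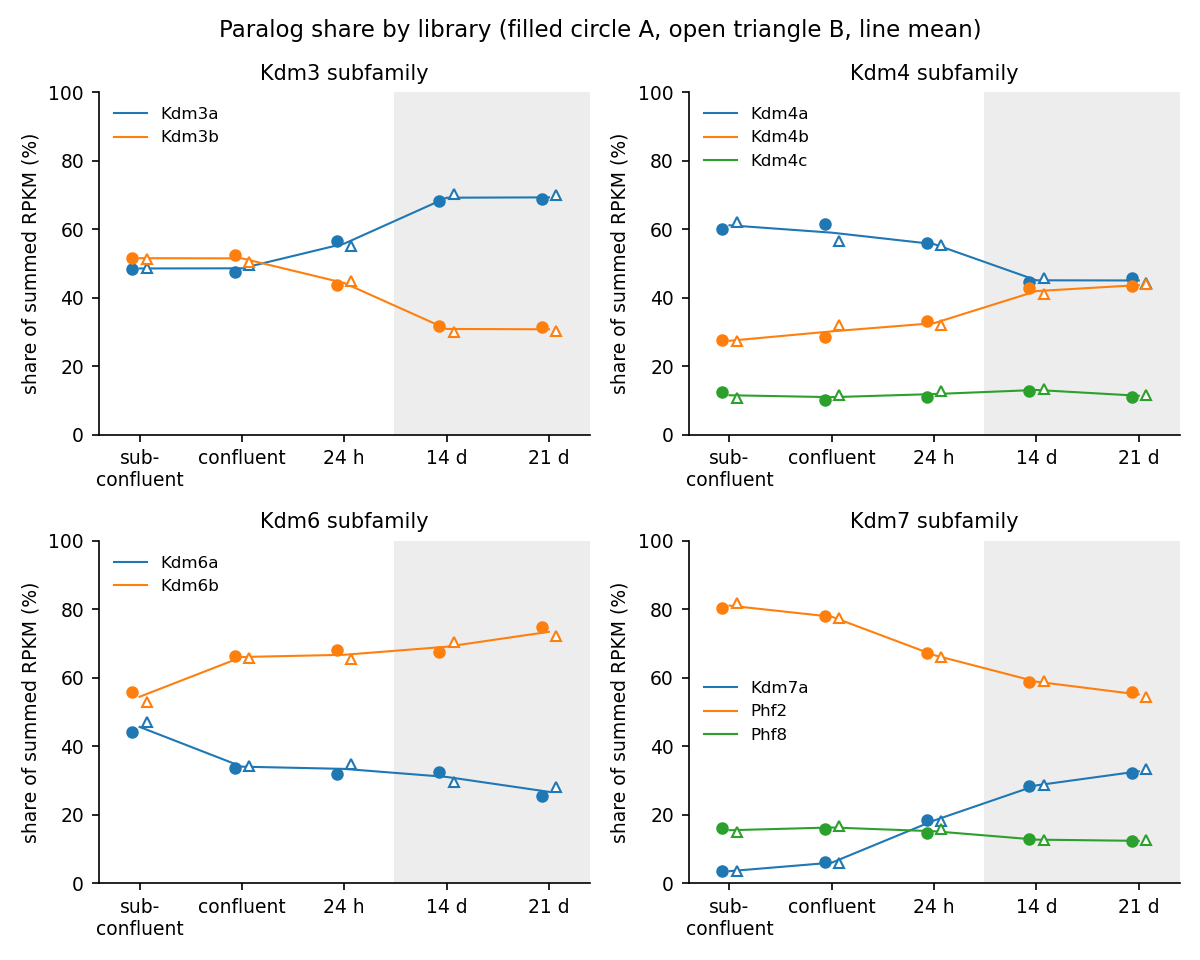
Share of each paralog in the summed RPKM of its subfamily, in percent, by stage; filled circles are replicate A, open triangles replicate B, lines join the means of n = 2, and the grey area marks the second index set. Kdm3a and Kdm3b cross between confluence and 24 h, a crossing that depends on the gene length behind the RPKM values. Kdm4b comes up to Kdm4a, Kdm6b steps up at confluence, and Kdm7a climbs from 3.51% to 32.6% as Phf2 goes from 81.0% to 55.0%.

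**Figure D3:**
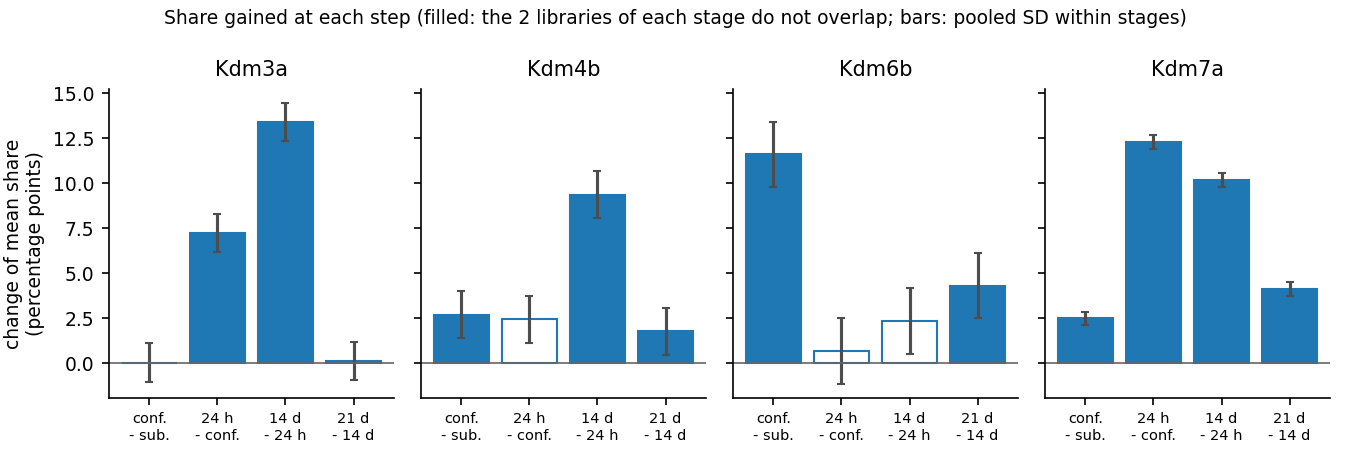
Change of the mean share at each of the 4 successive steps, in percentage points, for the 4 genes that gained share; whiskers show the pooled SD within stages, and filled bars mark steps at which the libraries of both stages do not overlap. Kdm3a gained at 24 h and 14 d, Kdm4b mostly at 14 d (9.37 points), Kdm6b mostly at confluence (11.6 points), and Kdm7a at all 4 steps.

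The errors of the shares were small beside the whole gains of Kdm3a, Kdm4b, Kdm6b and Kdm7a. They were not small beside every step, such as the 1.76 points of Kdm4b from 14 d to 21 d with a pooled SD of 1.30. Counting error, from the counts of the paralogs in a library, was between 0.15 and 1.37 points, and over the 10 members the SD between replicates had a median of 0.912 points and a highest value of 3.59. An exact permutation test of 2 against 2 libraries cannot go below p = 0.333, so steps are described by overlap and SD alone.

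For comparison, the Kdm2 and Kdm5 subfamilies, which act on H3K36 and H3K4, also changed in composition. The share of Kdm2a rose by 10.2 points (exact permutation p = 0.0138) and that of Kdm5b by 11.9 points (exact permutation p = 0.00212), from 7.40% and 6.88% in subconfluent cells to 19.5% and 18.7% at 21 d. The share of Kdm5c fell by 14.8 points (exact permutation p = 0.00317). That of Kdm5a differed among the 5 stages (exact permutation p = 0.00106) but did not rise steadily. Its means were 22.7%, 19.9%, 24.6%, 27.5% and 25.5% in the order of the stages, 2.89 points higher at 21 d than in subconfluent cells. The other p-values here are also of any difference among the 5 stages. The Y-linked Kdm5d, at 1.99 to 4.07 RPKM, was not counted in the Kdm5 sum. The summed RPKM of Kdm2 went from 15.0 to 13.5 and that of Kdm5 from 21.0 to 23.9, while the sums of Kdm3, Kdm4, Kdm6 and Kdm7 went from 16.8 to 27.6, 29.1 to 37.8, 5.91 to 10.7 and 18.1 to 27.5. The difference between subfamilies was not tested.

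Single genes were tested on counts with edgeR, fitted to all 20808 genes that passed a filter on low counts, all 10 members included. Between 21 d and subconfluent cells 4 of 10 members were called at an adjusted p under 0.05, all of them higher, where 50.7% of all genes were called in either direction and 27.3% as higher. These were Kdm7a (log2 change 3.93, SE 0.225, adjusted p = 1.47e-05), Kdm6b (1.40, SE 0.229, adjusted p = 0.00182), Kdm3a (1.35, SE 0.17, adjusted p = 0.000502) and Kdm4b (1.16, SE 0.129, adjusted p = 0.000267), 1 in each subfamily. The count of members was close to the background in either direction, and the median log2 change of the 10 was 0.43 against 0.039 for all genes. The other 6 had log2 changes between 0.049 for Kdm4a (adjusted p = 0.818) and 0.46 for Kdm4c (adjusted p = 0.115). Phf2 was at 0.16 (adjusted p = 0.527), Kdm3b at 0.087 (adjusted p = 0.738), Kdm6a at 0.19 (adjusted p = 0.583) and Phf8 at 0.39 (adjusted p = 0.207). Scaling by library size alone moved the median of all genes to -0.116 and turned Kdm3b and Kdm4a to -0.0709 and -0.109. Kdm4c and Phf8 passed when either 24 h library or both were left out, which brought 6 members to a call (without both, adjusted p = 0.00809 and 0.00351) against a background of 66.1%, and 8 members, among them Phf2 (adjusted p = 0.0332) and Kdm6a (adjusted p = 0.0478), when only the 2 stages were fitted, against a background of 69.3%.

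**Figure D4:**
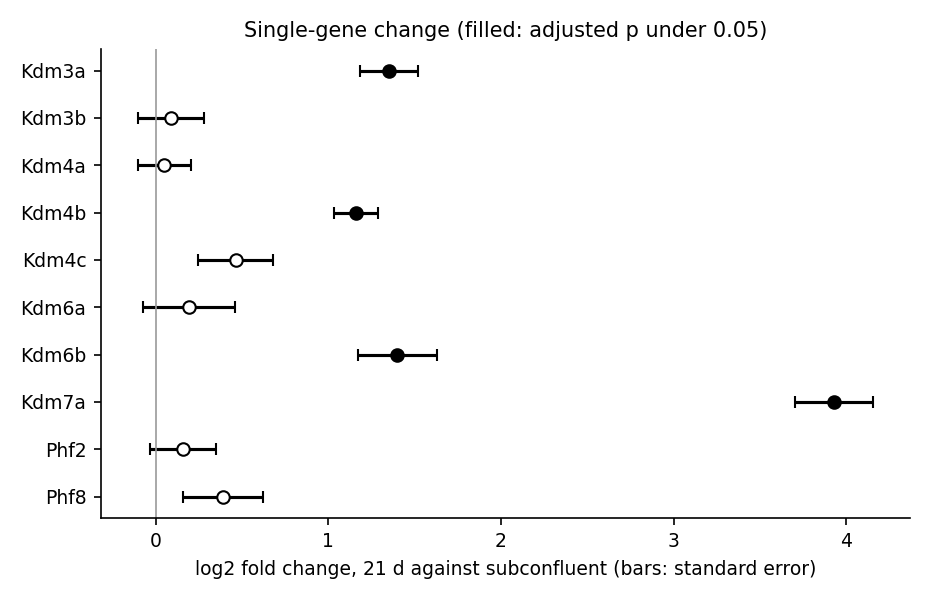
Log2 fold change of the 10 genes between 21 d and subconfluent cells, from edgeR on the counts of all 10 libraries; whiskers are standard errors and filled points have an adjusted p under 0.05. Kdm7a stands at 3.93, Kdm3a, Kdm4b and Kdm6b between 1.16 and 1.40, and the other 6 genes between 0.049 and 0.46.

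The successive stages were compared in the same fit, where Kdm6b was called at none of the steps (edgeR adjusted p 0.217 to 0.968). From confluence to 24 h only Kdm7a was called among the 10 (log2 change 1.68, SE 0.205, adjusted p = 0.00641), where 5.15% of all genes were called and 3.59% as higher. The call was lost without confluent A (log2 change 1.77) and without confluent B (1.59), where the share of all genes called fell as well. When only the 2 stages were fitted, the change was 1.68 (adjusted p = 0.245), and 0 of 19562 genes were called in that fit. Without 24 h B, 7 members were called, of which Kdm7a was higher and 6 lower, and 39.9% of all genes were called in that fit. From 24 h to 14 d, where 17.3% of genes were called and 9.08% as higher, Kdm3a (1.18, SE 0.169, adjusted p = 0.00499), Kdm7a (1.15, SE 0.201, adjusted p = 0.0104) and Kdm4b (0.63, SE 0.128, adjusted p = 0.0172) were higher. The number was 9 without 24 h B, where 46.6% of all genes were called, and 1, Kdm3a, without 14 d A or without 14 d B, where 5.07% and 3.85% were. Kdm4b missed the threshold at this step also with library size alone (adjusted p = 0.0922) and with limma on log2(RPKM + 1) (0.0592) and log2(RPKM + 0.1) (0.0586). All 3 genes missed it with only the 2 stages fitted (adjusted p 0.125 to 0.21), where 1.61% of all genes were called.

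From confluence to 14 d, with 32.1% of all genes called and 16.9% as higher, Kdm7a (2.83, SE 0.213, adjusted p = 0.000152), Kdm3a (1.23, SE 0.17, adjusted p = 0.00181) and Kdm4b (0.65, SE 0.128, adjusted p = 0.00815) were higher. Kdm4b missed the threshold with library size alone (adjusted p = 0.12), without confluent A (0.0541), without 14 d A (0.0561) and with limma on log2(RPKM + 1) (0.0741). With 24 h A, 24 h B or both left out, 6 members were called, and without both the further genes were Kdm6b (0.46, adjusted p = 0.00315), Kdm4c (0.40, adjusted p = 0.0186) and Kdm6a (0.26, adjusted p = 0.0374) against a background of 52.7%.

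At confluence edgeR called 0 of 10 members, where 3.28% of all genes were called. At an unadjusted p under 0.05 it was 1, Kdm7a (log2 change 0.77, adjusted p = 0.106). DESeq2 called 1, where it called 9.83% of all genes, and limma 0, where it called 2.97% and 2.83% with its 2 pseudocounts. When 24 h A, 24 h B or both were left out 3 were called, and without both these were Kdm7a (0.77, adjusted p = 0.00236), Kdm6b (0.52, adjusted p = 0.00982) and Kdm4b (0.25, adjusted p = 0.0235), where the background was 16.5%. From 14 d to 21 d edgeR called 0 of 10, with 9.72% of all genes called, and 0 at an unadjusted p under 0.05. DESeq2 and limma also called 0, where DESeq2 called 17.2% of all genes and limma 12.5% and 11.2%. Again 3 members were called without 24 h A, 24 h B or both, Kdm6b (0.41, adjusted p = 0.0103), Kdm7a (0.34, adjusted p = 0.0174) and Kdm4b (0.28, adjusted p = 0.00888) without both, against a background of 26.6%. In the test of any difference among the stages Kdm3a, Kdm4b, Kdm6b and Kdm7a were called, 4 of 10, where 48.9% of all genes were. That number was 7 without 24 h A or without both 24 h libraries, and 10 without 24 h B, with backgrounds of 63.4%, 70.6% and 72.9%. It was 3 without 21 d A, where 33.3% of all genes were called.

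The paralogs of a subfamily did not all follow each other across the 10 libraries, which differ in depth and stage. On log2 CPM values Pearson's r was 0.907 for Phf2 and Phf8 and 0.867 for Kdm4b and Kdm4c, but 0.357 for Kdm7a and Phf2, 0.485 for Kdm3a and Kdm3b, 0.614 for Kdm6a and Kdm6b, and 0.104 for Kdm4a and Kdm4b. The tested genes most like Kdm7a were Tspan18 (r = 0.998), Ephb6 (0.997) and Mertk (0.996), and 1724 genes had r over 0.9. For Kdm3a they were Rnf19a (0.995), Col4a2 (0.992) and Col4a1 (0.992), the last pair coding for collagen IV chains of basement membranes. Kdm4b was most like Zfp12 (0.995), Gm13735 (0.994) and Golph3l (0.993), and Kdm6b most like Plekha5 (0.991), Iqsec2 (0.989) and Dagla (0.987). With 5 stages behind 10 points, r over 0.9 was reached by 655 to 1724 genes for these 4 members.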

How the data were processed

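The deposited count table held reads per gene, not normalized, as counted by the authors, and the deposited RPKM values were those counts divided by the authors' gene length and by a read number per library, 31 to 108 in units of 1e6. The submitters' processing notes name FastQC, TopHat2 2.0.9, R 3.0.1 and mm10; the counting tool, annotation and strand setting are not given in the sources used here. Reads were 51 bp, paired. Merged columns were used for libraries run on 2 lanes. Stages came from the sample labels. Symbols and coordinates came from GENCODE vM21 (GRCm38).

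Shares of the summed RPKM were tested by an exact permutation test (two-sided by its F statistic) for any difference among the 5 stages. Within the first index set the same test was made over its 3 stages. Counts were fitted in edgeR 4.0.16 (R 4.3.3) with filterByExpr, TMM and the quasi-likelihood test, 6 comparisons and 1 F test, with Benjamini-Hochberg adjustment over all 20808 genes. Standard errors were the log2 change over the root of F. DESeq2 1.42.0 and limma 3.58.1 were alternatives. Scripts were tested on simulated data. Members, lists and named genes (all members, the 3 genes most like each rising member, other JmjC genes as a list) were chosen with earlier results of these data known. Intervals and counting errors cover counting error only.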

Additional observations from a re-analysis of the deposited data

How the results depend on the processing

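Under the alternatives the 7 shares that passed the permutation test kept their direction, and 127 of 133 alternative values of shares kept direction and side of the threshold. With the replicate letter as a block (replicate block) the change of the Kdm4a share, -16.1 points, had an exact permutation p = 0.05 and that of Phf8, -3.14 points, p = 0.0583. The labels do not say whether the letters pair the libraries. Deviations from the stage means correlated over 0.1 in 2 of 10 pairs of stages (-0.406 to 0.42). This cannot settle the pairing, since A and B also differed in depth. The block moved no count of calls by over 1.5 times. With the 24 h libraries left out, chosen after seeing the data, the gain of Kdm3a, 20.8 points, had an exact permutation p = 0.0857. The uncalled change of Kdm4c was 0.149 points with counts and -1.1 to 0.773 with 1 replicate left out. The uncalled log2 changes between 21 d and subconfluent cells reversed for Kdm3b (-0.0709 with library size alone, -0.0257 and -0.0283 with limma on log2(RPKM + 1) and log2(RPKM + 0.1)) and Kdm4a (-0.109, -0.0633 and -0.0666, and -0.0158 to 0.0663 with 1 replicate left out).

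The number of members called moved with the libraries in the fit. With only the 2 stages compared it was 2 at confluence (5.86% of all genes called), 0 from confluence to 24 h (0%) and 0 from 24 h to 14 d (1.61%). It was 5 from 14 d to 21 d (30.5%), 6 from confluence to 14 d (48%) and 8 from subconfluent cells to 21 d (69.3%). With 24 h left out it was 3 at confluence (16.5% of all genes called) and 3 from 14 d to 21 d (26.6%). It was then 6 from confluence to 14 d (52.7%) and 7 for any difference (70.6%). With 1 replicate left out it ran from 0 to 3, 0 to 7, 1 to 9, 0 to 3 and 2 to 6 for the first 5 of these comparisons and from 3 to 10 for any difference, 3 without 21 d A. DESeq2 called 1 at confluence. A threshold of more than 2-fold as well moved no count by over 1.5 times. The share of all genes called moved with the libraries in the fit as well, so these changes were not particular to the members. The cause of these changes was not tested. The lowest count of a member was 154, and each stage had 2 libraries.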

Other observations

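Other JmjC demethylase genes outside the 4 subfamilies, or further genes of them, were called about as often as all genes were. Of 13 such genes 6 were called between 21 d and subconfluent cells by edgeR, 3 higher and 3 lower, where 50.7% of all genes were called in either direction and 27.3% as higher. The higher ones were Hr (log2 change 2.80, SE 0.201, adjusted p = 3.58e-05), which codes for the hairless protein, Kdm5b (1.71, SE 0.162, adjusted p = 0.000123), an H3K4 demethylase, and Uty (1.06, SE 0.285, adjusted p = 0.0174). The lower ones were Kdm8 (-0.69, SE 0.184, adjusted p = 0.0167), Kdm2b (-0.50, SE 0.114, adjusted p = 0.00833), an H3K36 demethylase, and Riox2 (-0.48, SE 0.0831, adjusted p = 0.00232). Hr, Kdm8 and Riox2 were named after their values were seen.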
